A study of Mus musculus with 4 samples.

Results

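The elastic fibre, matricellular and proteoglycan genes of the tooth germ were compared between the mouse dental follicle (DF) and the dental papilla (P), each labelled PN2 or E17. The set comprised every gene symbol of the array annotation that belongs by name to the elastin, fibrillin, fibulin, microfibril-associated, emilin, lysyl oxidase, latent TGF-beta binding protein, thrombospondin, tenascin, spondin, periostin, matrilin, small leucine-rich proteoglycan, hyalectan and link protein families, which gave 52 of 16039 genes, on 82 probes. Of these 52 genes, 47 had a normalised signal of 100 or more in some tissue and stage and were compared, as were 14238 genes of the array in all. The remaining 5, Efemp1, Hapln2, Matn3, Mfap3l and Tnr, did not reach that signal. The name pattern also takes in Mfap1a, Mfap3, Mfap3l and Loxhd1, which are not matrix proteins of these families and are kept apart below.

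The groups were DF at PN2, DF at E17, P at PN2 and P at E17, with total RNA from mouse tissue and no strain, genotype, treatment or number of animals given in the labels. The titles describe 4 two-colour Agilent arrays that set DF against P within a stage and PN2 against E17 within a tissue, but a tissue and stage has identical signals wherever it recurs, so that the files hold 4 distinct signal columns. Whether a column is 1 hybridisation or a combined value is not stated. With 1 column for each tissue and stage there was no replicate, no p-value was computed, and higher or lower below means a log2 ratio of more than 1 in size, the 2-fold limit that the series' design names for the stages. The labels also carry a description of whole embryo and a stem cell culture protocol beside the tissue names, 1 tissue entry of a follicle array reads DF PN3, and the titles were followed. The follicle genes Pth1r, Csf1, Tnfsf11, Bmp3 and Igfbp5 were higher in the follicle than in the papilla at PN2 in 3 of 5 cases and at E17 in 5 of 5, and of the papilla regulators Msx1, Msx2, Pax9, Lhx6, Lhx8 and Fgf3, 4 of 6 were lower in the follicle at each stage, while Lhx8 was higher in DF at PN2. In such whole tissue, fewer cells of a type and less RNA per cell cannot be told apart.

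The dental follicle is the connective tissue sac around the tooth germ that gives rise to the periodontal ligament, the cementum and the lining of the alveolar bone, and the dental papilla is the mesenchyme that forms odontoblasts and pulp. Elastic fibres consist of elastin laid on a scaffold of fibrillin microfibrils, with fibulins and microfibril-associated proteins guiding the deposition and lysyl oxidases cross-linking elastin and collagen. Matricellular proteins such as thrombospondins, tenascins and periostin sit in the matrix and act on cells rather than bear load, small leucine-rich proteoglycans bind collagen fibrils and growth factors, and hyalectans such as versican and aggrecan hold hyaluronan in place with the help of link proteins.

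More of the 47 genes passed the limit between the tissues than between the stages. At PN2, 14 of the 47 genes were higher in DF than in P (29.8%, against 12.8% of all compared genes) and 12 were lower (25.5%, against 13.4%), in all 55.3%, against 26.2%. At E17, 19 were higher in DF than in P (40.4%, against 10.5%) and 9 were lower (19.1%, against 10.1%), in all 59.6%, against 20.6%. In the follicle, PN2 lay above E17 for 3 genes (6.38%, against 3.83%) and below it for 6 (12.8%, against 4.06%), in all 19.1%, against 7.89%. In the papilla, PN2 lay above E17 for 11 genes (23.4%, against 6.55%) and below it for 2 (4.26%, against 5.09%), in all 27.7%, against 11.6%. The follicle to papilla ratio at PN2 lay more than 2-fold above that at E17 for 5 genes (10.6%, against 8.12%) and more than 2-fold below it for 14 (29.8%, against 9.14%), in all 40.4%, against 17.3%. The median log2 ratios of the 47 genes were -0.05 for DF over P at PN2, 0.52 for DF over P at E17, -0.20 for PN2 over E17 in DF and 0.24 for PN2 over E17 in P, beside -0.07, -0.07, -0.01 and -0.02 over all compared genes. These counts describe genes that passed a filter on low signals, which a gene can pass through the tissue where it is high.

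The share of higher genes among those called depended on the scaling. Without normalisation the median log2 ratio of all compared genes was 0.21 for DF over P at PN2, -0.32 for DF over P at E17, -0.23 for PN2 over E17 in DF and -0.80 for PN2 over E17 in P. Among called genes, the part that was higher changed from 53.8% to 64.0% at PN2, from 67.9% to 50% at E17, from 84.6% to 23.5% in the papilla and, for the change in the tissue ratio, from 26.3% to 50%. In the follicle it moved from 33.3% to 55.6% with median centring and to 62.5% in the authors' deposited ratios, where it was 64.0% at PN2. Set against the shift of all genes, the papilla counts without normalisation were 12 higher and 1 lower. No called gene changed its sign under any of these scalings. The call held under all 4 for 22 of 26 genes at PN2 (not Fmod, Ltbp1, Prelp and Tnn), for 20 of 28 at E17 (not Fbln2, Fbln5, Loxl4, Matn4, Mfap4, Prelp, Thbs3 and Tnxb) and for 6 of 9 in DF (not Dcn, Fbln2 and Vcan). In P it held for 5 of 13, Dcn, Fmod, Ltbp2, Thbs3 and Thbs4. For the change in the tissue ratio it held for 13 of 19, not for Fbln2, Lox, Ltbp2, Ogn, Thbs3 and Tnc.

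**Figure D1:**
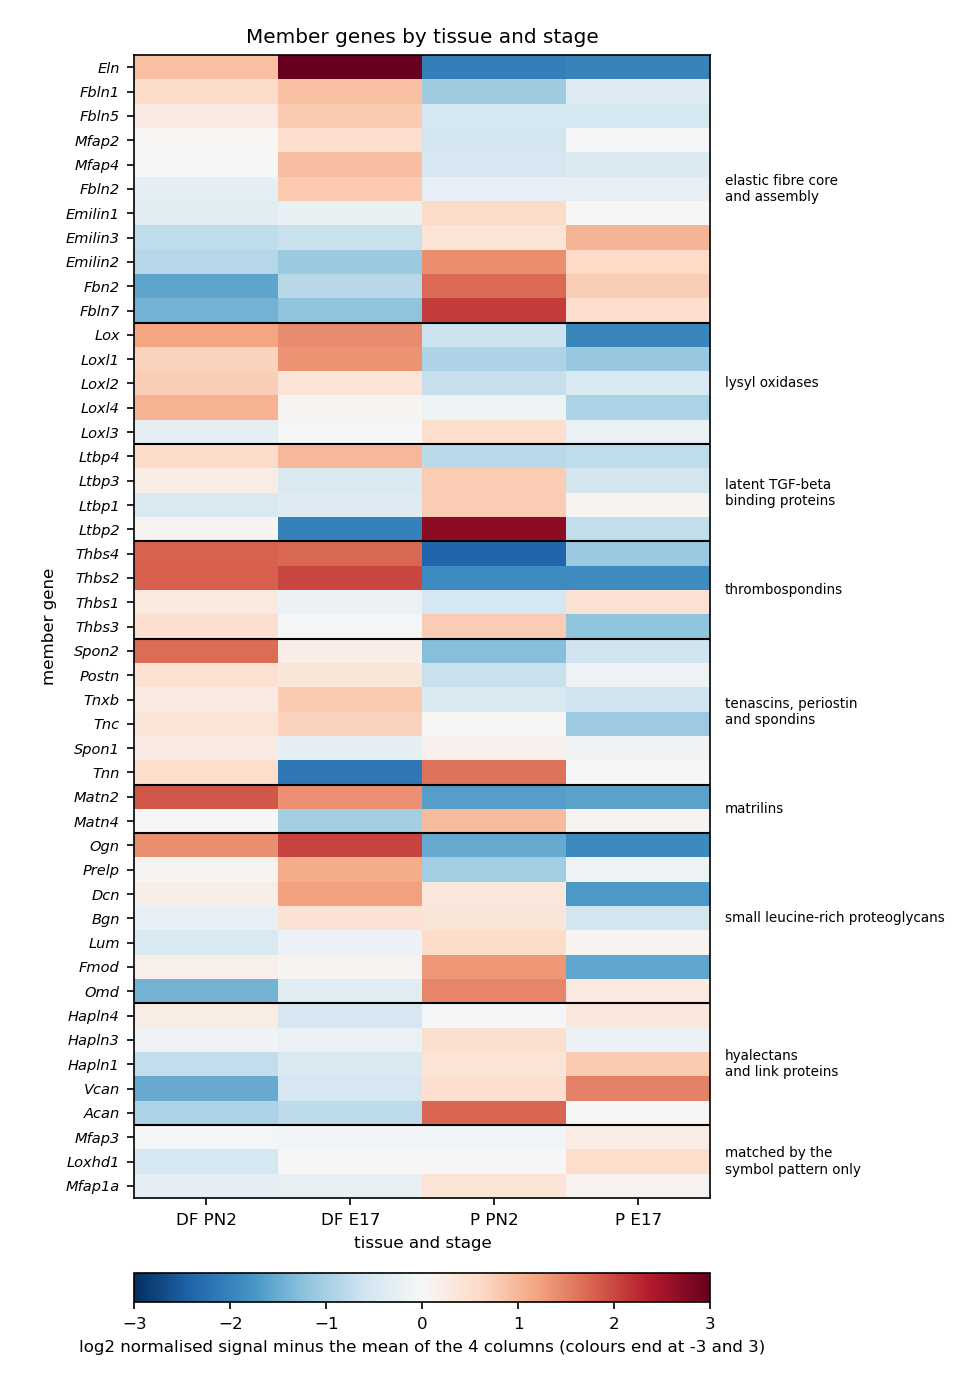
Heat map of the 47 compared genes (rows, by role group) in DF PN2, DF E17, P PN2 and P E17 (columns, 1 signal column each). Colour gives the log2 normalised signal minus the gene's mean over the 4 columns: Eln is highest in DF E17, Ltbp2 in P PN2, and Thbs2, Thbs4 and Matn2 are high in both follicle columns.

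Among elastic fibre genes, elastin itself stood with the follicle and fibrillin 2 with the papilla. Eln, the gene of the elastic core protein, had a signal of 3303 in DF PN2 and 15703 in DF E17, against 425 in P PN2 and 437 in P E17. The follicle signals lay above both papilla signals, 7.76-fold at PN2 and 36.0-fold at E17, and the follicle signal was 4.75-fold lower at PN2 than at E17 (log2 ratio -2.25), the lowest ratio of the set in that comparison, while the papilla ratio was -0.04. Fbn2, a fibrillin of developing microfibrils, had 2004 in DF PN2 and 3374 in DF E17, against 19718 in P PN2 and 10036 in P E17. Its follicle signal was thus below the papilla signal at both stages, with log2 ratios of -3.30 at PN2 and -1.57 at E17.

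The fibulins, which link elastin to microfibrils and basement membranes, were divided between the tissues. Fbln1 had 4375 in DF PN2 and 5449.8 in DF E17, against 1399 in P PN2 and 2237 in P E17, and was higher in the follicle at both stages. Fbln7, a fibulin found in developing teeth, ran the other way: it had 294 in DF PN2 and 339 in DF E17, against 3362 in P PN2 and 1114 in P E17. Its log2 ratio was -3.52 at PN2, the lowest of the set, and -1.72 at E17, and its papilla signal was 3.02-fold higher at PN2 than at E17. Fbln2 had 12169 in DF PN2 and 25806 in DF E17, against 12572 in P PN2 and 12463 in P E17, so that DF E17 stood above the other columns. Its log2 ratio of DF over P was -0.05 at PN2 and 1.05 at E17. Fbln5, which mice need for elastic fibre assembly, had 244 in DF PN2 and 355 in DF E17, against 143 in P PN2 and 142 in P E17, with ratios of 0.77 at PN2 and 1.32 at E17. The 3 probes of Fbln5 ranged from -0.29 to 2.80 at PN2, so its level there is uncertain. Fbln2 was lower in DF PN2 than in DF E17 (-1.08).

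Of the emilins, glycoproteins at the interface of elastin and microfibrils, Emilin2 and Emilin3 were lower in DF than in P. Emilin2 had 553 in DF PN2 and 464 in DF E17, against 2649 in P PN2 and 1513 in P E17, and its 2 probes agreed on the papilla side, between -2.53 and -1.98 at PN2 and between -1.72 and -1.69 at E17. Emilin3 had 140.1 in DF PN2 and 149 in DF E17, against 318 in P PN2 and 482 in P E17. It was called lower in DF at both stages (-1.18 at PN2 and -1.70 at E17), but this rested on 1 of its 2 probes: the other stood at -0.25 at PN2 and -0.32 at E17. Emilin1 passed the limit in neither stage (-0.90 and -0.22). Mfap4, which binds elastin and microfibrils, had 181 in DF PN2 and 339 in DF E17, against 128 in P PN2 and 134 in P E17. It was higher in DF at E17 (1.34) and stood at 0.50 at PN2, and Mfap2, a microfibril component, passed the limit in neither (0.62 and 0.53). The PN2 value of Mfap2 is uncertain, as its 2 probes stood at 1.59 and -0.36. It also passed the limit there without normalisation (1.14) and in the authors' deposited ratios (1.05).

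Lysyl oxidases, the copper enzymes that cross-link elastin and collagen, included 4 genes that were higher in the follicle. At PN2, 4 of the 5 genes were higher in DF than in P (12.8% of all compared genes were) and 0 were lower. At E17, 3 were higher (10.5% of all compared genes) and 0 lower. Lox had 350.1 in DF PN2 and 411 in DF E17, against 98.0 in P PN2 and 39.8 in P E17. The follicle was above the papilla 3.57-fold at PN2 and 10.3-fold at E17, and the P E17 signal is near the 5th percentile of all normalised signals, 37.9. Loxl1, needed for elastic fibre maintenance in mice, had 1527 in DF PN2 and 2401 in DF E17, against 497 in P PN2 and 428 in P E17. Loxl2 had 1796.0 in DF PN2 and 1436 in DF E17, against 676 in P PN2 and 796 in P E17. It was higher in DF at PN2 by both of its probes (1.39 and 1.43) and stood at 0.85 at E17. With median centring (1.03) and in the authors' deposited ratios (1.21) Loxl2 passed the limit at E17 too. Loxl4 had 807 in DF PN2 and 414 in DF E17, against 355 in P PN2 and 203 in P E17. Its ratio was 1.19 at PN2 and 1.03 at E17, where it fell short of the limit without normalisation (0.72) and with median centring (0.9996). Loxl3 was on neither side past the limit (-0.80 and 0.14). Between stages, Lox was higher in P PN2 than in P E17 (1.30, but 0.98 with median centring and 0.20 without normalisation). Loxl4 stood at 0.96 for PN2 over E17 in DF, and at 1.07 with median centring and 1.15 in the authors' deposited ratios.

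The latent TGF-beta binding proteins, which tether latent TGF-beta to microfibrils, split by family member. Ltbp2, which binds fibrillin but not latent TGF-beta, had 420.3 in DF PN2 and 98.0 in DF E17, against 2571 in P PN2 and 237 in P E17. It was below the papilla in the follicle at both stages (-2.61 at PN2 and -1.28 at E17) and higher at PN2 than at E17 in both tissues (2.10 in DF and 3.44 in P, the highest papilla ratio of the set). Ltbp4, which takes part in elastin assembly, had 2005 in DF PN2 and 2699 in DF E17, against 773 in P PN2 and 798 in P E17, and was higher in the follicle at both stages (1.38 and 1.76). Ltbp3 had 835 in DF PN2 and 524 in DF E17, against 1214 in P PN2 and 484 in P E17. It was higher in P PN2 than in P E17 (1.33), with probes at 0.95 and 1.71. Ltbp1 had 1165 in DF PN2 and 1229 in DF E17, against 2726 in P PN2 and 1700.0 in P E17. It was called lower in DF than in P at PN2 (-1.23), with 1 probe at -2.43 and the other at -0.02.

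The promoter of Ltbp2 is shown because this gene had the highest papilla stage ratio of the set. It is the RefSeq window from 250 bases before to 50 bases after the gene's start, on GRCm38.p6 at chr12:84876442-84876741, minus strand, written 5′ to 3′. Capitals mark matches, on either strand, to the GC box letters GGGCGG, of which there are 2, and there is no match to the TATA box letters TATAAA, the runt site letters ACCACA or the AP-1 letters TGANTCA.
Ltbp2: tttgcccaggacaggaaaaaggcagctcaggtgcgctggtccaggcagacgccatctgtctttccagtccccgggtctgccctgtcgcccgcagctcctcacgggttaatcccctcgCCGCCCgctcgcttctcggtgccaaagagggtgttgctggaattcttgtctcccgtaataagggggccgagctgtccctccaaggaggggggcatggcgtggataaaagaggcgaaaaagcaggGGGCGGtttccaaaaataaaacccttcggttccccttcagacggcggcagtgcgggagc
GGGCGG occurs in 35.7% of the 32851 promoter windows of this table and in 48.8% of the 41 windows of the 31 compared genes of the set that it holds.

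Thrombospondins 2 and 4, matricellular regulators of collagen fibrils and cell adhesion, gave the largest follicle ratios at PN2. Thbs4 had 887 in DF PN2 and 861 in DF E17, against 49.7 in P PN2 and 119 in P E17. Both of its probes lay on the follicle side at both stages, at 2.82 and 5.50 at PN2 and at 2.23 and 3.47 at E17. With signals raised to 37.9 the PN2 ratio was 4.0 in place of 4.16. Thbs2 had 4940.4 in DF PN2 and 5689.6 in DF E17, against 386 in P PN2 and 383 in P E17, a 12.8-fold and a 14.8-fold difference with almost level values between the stages. Thbs3, by contrast, was higher in DF than in P at E17 (1.16) and stood at -0.25 at PN2, its signal being 1400.1 in DF PN2 and 949 in DF E17, against 1662 in P PN2 and 424 in P E17. Its papilla signal was 3.92-fold higher at PN2 than at E17. Thbs1, an activator of latent TGF-beta, had 2167 in DF PN2 and 1567 in DF E17, against 1226 in P PN2 and 2415 in P E17. It stood at 0.82 for DF over P at PN2 and at -0.62 at E17. At PN2 it passed the limit under the other scalings, at 1.29 without normalisation, 1.03 with median centring and 1.20 in the authors' deposited ratios. Its probes at PN2 disagreed, however, from -0.10 for the brightest to 1.78. In the papilla it stood at -0.98 for PN2 over E17, with 3 probes between -1.70 and -0.18. That ratio was -1.61 without normalisation, -0.82 with median centring and -0.74 in the authors' deposited ratios.

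Among tenascins and spondins, Tnn and Spon2 were the members past the limit between the follicle stages. Tnn (tenascin-W), a tenascin of bone and tooth-forming regions, had 213 in DF PN2 and 33.5 in DF E17, against 462 in P PN2 and 147 in P E17. It was higher at PN2 than at E17 in both tissues (2.67 in DF, or 2.49 with low signals raised to 37.9, and 1.66 in P) and lower in the follicle than in the papilla at both stages (-1.12 and -2.13). Tnc (tenascin-C), made in condensing mesenchyme, had 5942 in DF PN2 and 7358 in DF E17, against 4659 in P PN2 and 2127 in P E17. Its 4 probes lay between 1.47 and 1.99 for DF over P at E17, while at PN2 they ranged from -0.30 to 1.29. In the papilla Tnc was higher at PN2 than at E17 (1.13). Tnxb (tenascin-X), which organises collagen, had 122 in DF PN2 and 173 in DF E17, against 73.4 in P PN2 and 66.8 in P E17. It was higher in DF at E17 (1.37) and stood at 0.73 at PN2. Spon2 (mindin), a secreted spondin, had 879 in DF PN2 and 317 in DF E17, against 113 in P PN2 and 181 in P E17, so that its follicle signal was 2.77-fold higher at PN2 than at E17 and 7.79-fold above the papilla at PN2. Its probes both passed the limit at PN2 (1.89 and 4.03) and differed at E17 (0.27 and 1.35). Postn (periostin), the periodontal ligament protein that promotes collagen cross-linking, had 2685.5 in DF PN2 and 2515 in DF E17, against 1220.5 in P PN2 and 1756 in P E17. Its call at PN2 (1.14) rested on probes at 0.83 and 1.45, and at E17 it stood at 0.52, with the same probes at 1.02 and 0.01. The first of these probes was far brighter (27302 in DF PN2, against 264), and it passed the limit at E17 but not at PN2. Spon1 passed the limit in none of the 4 ratios.

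Matn2 and Matn4, matrilins that bridge collagen and proteoglycans, stood on opposite sides. Matn2 had 7142 in DF PN2 and 5103 in DF E17, against 623 in P PN2 and 647 in P E17, and the log2 ratios were 3.52 at PN2 and 2.98 at E17. Matn4 had 6701 in DF PN2 and 3369.9 in DF E17, against 13088 in P PN2 and 7142 in P E17. Its ratio passed the limit at E17 (-1.08) but not at PN2 (-0.97), and at E17 it was -0.82 with median centring and -0.64 in the authors' deposited ratios.

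Among the small leucine-rich proteoglycans, the follicle to papilla ratio of 5 of the 7 genes lay more than 2-fold lower at PN2 than at E17 (9.14% of all compared genes did), and that of 0 more than 2-fold higher (8.12%). Ogn, 1 of the 5, stood at -1.04, but at -0.37 without normalisation, -0.91 with median centring and -0.92 in the authors' deposited ratios. Dcn (decorin), which binds collagen fibrils and TGF-beta, had 1304 in DF PN2 and 2740.4 in DF E17, against 1459 in P PN2 and 350.4 in P E17. The follicle stood 7.82-fold above the papilla at E17, and the tissues differed by a log2 ratio of -0.16 at PN2. In the stage comparisons Dcn was lower in DF PN2 than in DF E17 (-1.07, with probes at -0.88 and -1.26, and -0.99 with median centring) and higher in P PN2 than in P E17 (2.06, with probes at 0.94 and 3.18). Fmod (fibromodulin), a regulator of fibril diameter in tendon and dentin, had 293 in DF PN2 and 278 in DF E17, against 645 in P PN2 and 89.2 in P E17. It was lower in DF than in P at PN2 (-1.14, but -0.83 without normalisation and -0.92 in the authors' deposited ratios) and higher at E17 (1.64), and its papilla signal was 7.24-fold higher at PN2 than at E17.

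Omd (osteomodulin, or osteoadherin), a proteoglycan of bone and dentin, had 122 in DF PN2 and 256 in DF E17, against 909 in P PN2 and 404 in P E17. The follicle was below the papilla 7.43-fold at PN2, and the E17 ratio was -0.66. Omd was lower in DF PN2 than in DF E17 (-1.07) and higher in P PN2 than in P E17 (1.17, but 0.40 without normalisation). Ogn (osteoglycin, or mimecan) had 22098.5 in DF PN2 and 34240.3 in DF E17, against 2959 in P PN2 and 2226 in P E17, and the follicle lay above the papilla 7.47-fold at PN2 and 15.4-fold at E17. Bgn (biglycan) had 1277 in DF PN2 and 2041 in DF E17, against 1940.0 in P PN2 and 1021 in P E17. These values average a bright and a dim probe, at 25745 and 63.3 in DF PN2. For DF over P at PN2 the bright probe stood at -0.12 and the dim one at -1.08, with changes between the stages of -1.07 and -2.14. Bgn as a gene stood just under the limit for DF over P at E17 (1.00) and at -0.60 at PN2, with a change in that ratio of -1.60. Lum (lumican) stood just inside the limit at PN2 (-0.999) and at -0.26 at E17. Its PN2 ratio was -0.51 without normalisation, -0.77 with median centring and -0.60 in the authors' deposited ratios. Prelp had 193 in DF PN2 and 395 in DF E17, against 87.7 in P PN2 and 162 in P E17. It was called higher in DF than in P at both stages (1.14 and 1.29), but its 2 probes disagreed in sign, at 3.52 and -1.23 at PN2 and at 4.19 and -1.62 at E17.

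Ogn and Omd are next to each other in the RefSeq annotation of chromosome 13, with no protein-coding gene between them. Their log2 ratios of DF over P had opposite signs at both stages, although that of Omd at E17 was within the limit. Opposite signs were also seen for the neighbours Prelp and Fmod on chromosome 1 at PN2 (1.14 and -1.14), where the probes of Prelp disagreed. So it was for Dcn and Lum on chromosome 10 at E17 (2.97 and -0.26). The promoter windows of Ogn and Omd are shown for their opposite signs, and that of Fmod because it was called lower in DF at PN2 and higher at E17. They are from RefSeq on GRCm38.p6, plus strand, 5′ to 3′, over the same span as for Ltbp2. The windows lie at chr13:49607765-49608064 for Ogn, chr13:49582212-49582511 for Omd and chr1:134037004-134037303 for Fmod. Capitals mark matches to TATAAA, of which Ogn has 2 that overlap on opposite strands, and to ACCACA, of which Ogn has 1.
Ogn: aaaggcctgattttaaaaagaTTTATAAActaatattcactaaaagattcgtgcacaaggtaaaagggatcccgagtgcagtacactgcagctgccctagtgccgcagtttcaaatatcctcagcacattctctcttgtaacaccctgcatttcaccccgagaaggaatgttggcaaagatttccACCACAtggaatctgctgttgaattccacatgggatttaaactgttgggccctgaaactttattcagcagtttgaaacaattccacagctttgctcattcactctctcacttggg
Omd: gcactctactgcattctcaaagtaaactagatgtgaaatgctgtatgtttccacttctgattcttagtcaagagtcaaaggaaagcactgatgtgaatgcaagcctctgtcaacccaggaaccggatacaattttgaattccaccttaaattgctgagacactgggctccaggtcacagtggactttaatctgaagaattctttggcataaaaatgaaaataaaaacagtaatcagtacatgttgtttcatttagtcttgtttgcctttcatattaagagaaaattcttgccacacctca
Fmod: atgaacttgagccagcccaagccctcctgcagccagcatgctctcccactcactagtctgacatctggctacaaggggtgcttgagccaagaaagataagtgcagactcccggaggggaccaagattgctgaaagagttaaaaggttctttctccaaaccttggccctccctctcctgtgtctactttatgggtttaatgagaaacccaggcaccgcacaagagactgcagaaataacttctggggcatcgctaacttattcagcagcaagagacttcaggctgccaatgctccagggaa
Neither Omd nor Fmod holds any of the 4 letter strings searched in this window. TATAAA occurs in 13.6% of all promoter windows and in 14.6% of those of the set, and ACCACA in 16.8% and 7.32%.

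Hyalectan and link protein genes were lower in DF than in P wherever they passed the limit between the tissues. Vcan (versican), the hyalectan of loose mesenchyme, had 534 in DF PN2 and 1073 in DF E17, against 2149 in P PN2 and 4356 in P E17. Its ratio of DF over P was -2.01 at PN2 and -2.02 at E17, with all 5 probes between -2.32 and -1.58 at PN2 and between -2.12 and -1.96 at E17. It was also just past the limit between the stages in both tissues, at -1.01 in DF and -1.02 in P, and inside it in the authors' deposited ratios (-0.93 and -0.78). The brightest probe of Vcan stood inside the limit between the stages, at -0.73 in DF and -0.42 in P. Acan (aggrecan), best known from cartilage, had 138 in DF PN2 and 156 in DF E17, against 899 in P PN2 and 268 in P E17, and so was 6.51-fold lower in DF than in P at PN2 and 3.36-fold higher in P PN2 than in P E17. Of the link proteins, which fasten hyalectans to hyaluronan, Hapln1 was lower in DF at both stages (-1.13 and -1.23), at signals of 58.7 in DF PN2 and 72.5 in DF E17, against 128 in P PN2 and 170.5 in P E17. Hapln3 and Hapln4 passed the limit in none of the 4 ratios. Hapln4, whose tissue ratio changed by 1.09 between the stages, had 122 in DF PN2 and 72.8 in DF E17, against 101 in P PN2 and 129 in P E17. Hapln1 and Vcan are neighbours on chromosome 13 and both were lower in the follicle, whereas Acan and Hapln3, neighbours on chromosome 7, were at -2.70 and -0.57 at PN2.

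**Figure D2:**
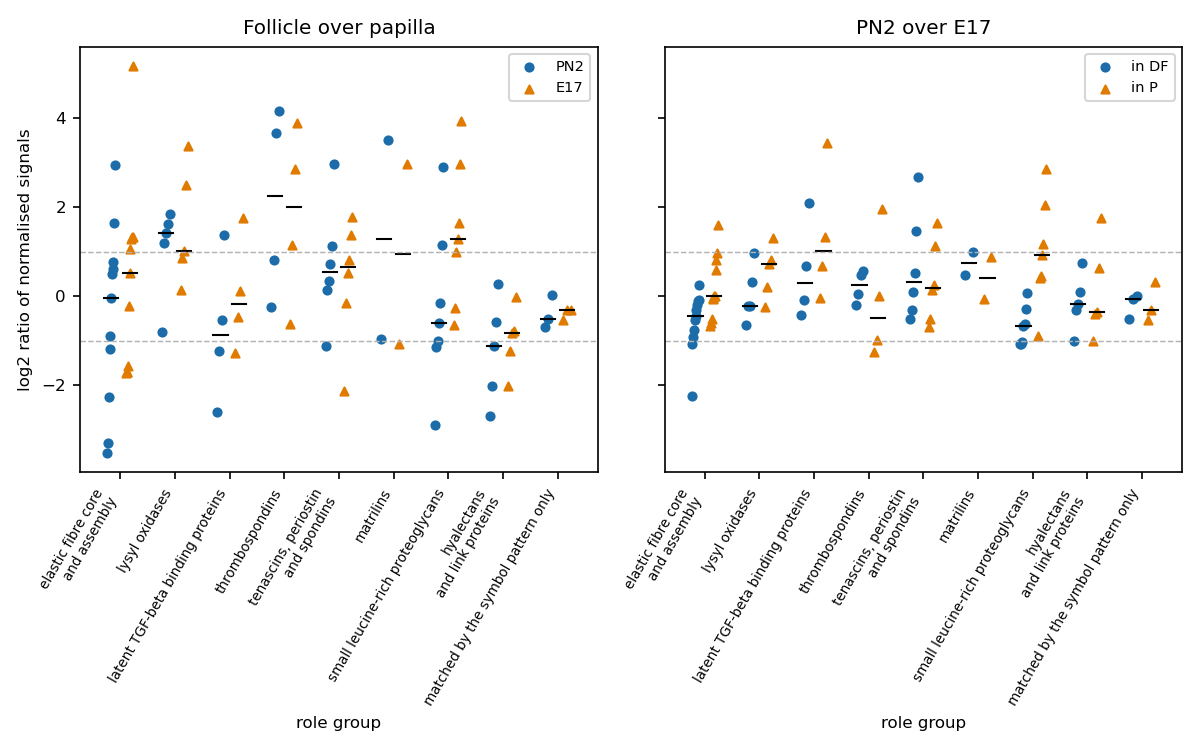
Log2 ratios of the 47 compared genes by role group (1 point per gene, black bars are group medians, dashed lines the 2-fold limit). Left, DF over P at PN2 (circles) and E17 (triangles). Right, PN2 over E17 in DF (circles) and P (triangles). Lysyl oxidases reach no value below the lower limit. For DF over P, small leucine-rich proteoglycans have a median of -0.60 at PN2 and 1.29 at E17. The PN2 median is the value of Bgn, with probes at -0.12 and -1.08. The E17 median is that of Prelp, with probes at 4.19 and -1.62.

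The tissue ratios of the stages, which share no signal column, were compared gene by gene. Higher in DF than in P at both stages were 11 of the 47 genes, against 6.05% of all compared genes: Eln, Fbln1, Lox, Loxl1, Loxl4, Ltbp4, Matn2, Ogn, Prelp, Thbs2 and Thbs4. Lower at both were 8, against 5.62%: Emilin2, Emilin3, Fbln7, Fbn2, Hapln1, Ltbp2, Tnn and Vcan. Fmod alone was lower at PN2 and higher at E17, against 0.176%. On the follicle side, Loxl2, Postn and Spon2 passed the limit at PN2 alone (3 genes, against 6.62% of all compared genes), and Dcn, Fbln2, Fbln5, Mfap4, Thbs3, Tnc and Tnxb at E17 alone (7 genes, against 4.27%). On the papilla side, Acan, Ltbp1 and Omd passed it at PN2 alone (3 genes, against 7.61%), and Matn4 at E17 alone (1 gene, against 4.35%). Passing at 1 stage alone does not show that a gene's ratios differ between the stages. The brighter probe of Postn, for example, passed at E17 alone. As a description over the 47 genes, Pearson's r was 0.806 and Spearman's rho 0.792, beside 0.661 and 0.614 over all compared genes. Genes are not independent replicates, and the 2 columns of a stage were each used for all genes.

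**Figure D3:**
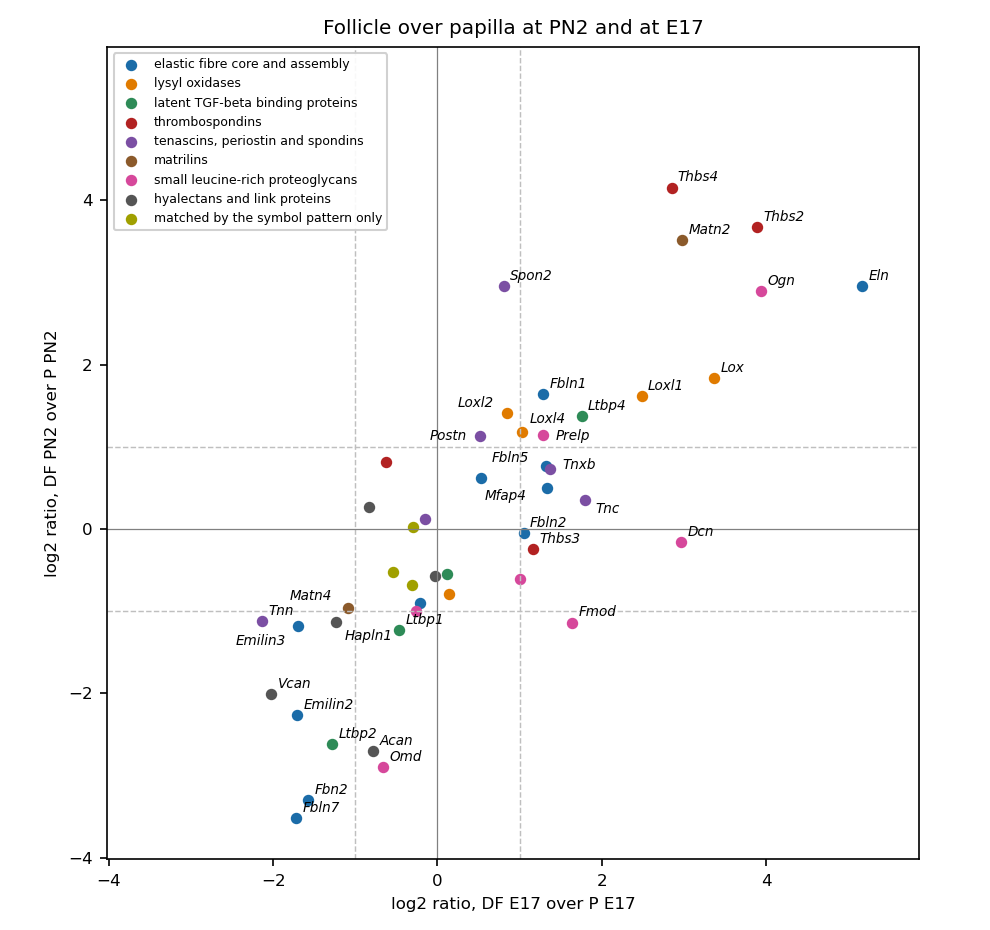
DF over P as a log2 ratio, at PN2 (vertical) against that at E17 (horizontal) for the 47 compared genes, coloured by role group, with dashed lines at the 2-fold limit and names where either ratio passes it. Fmod is the gene in the lower right field (1.64 at E17 and -1.14 at PN2), and Dcn lies at 2.97 and -0.16.

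Of the 14 genes whose follicle to papilla ratio was more than 2-fold lower at PN2 than at E17, 9 were also higher in P PN2 than in P E17 (Acan, Dcn, Fbln7, Fmod, Lox, Ltbp2, Omd, Thbs3 and Tnc) and 4 were lower in DF PN2 than in DF E17 (Dcn, Eln, Fbln2 and Omd). These comparisons share signal columns, since the change equals the DF stage ratio minus the P stage ratio. Such overlap is therefore built in and is not a result about the set. The matching share over all compared genes was not computed. The 5 with a higher ratio were Hapln4, Spon2, Thbs1, Thbs4 and Tnn, of which Tnn (1.01) stood at 0.83 with signals raised to 37.9. Thbs1 stood at 1.45, but its brightest probe at 0.64. In the stage comparisons, which share no column with each other, Ltbp2 and Tnn were higher at PN2 in both tissues (0.639% of all compared genes were), Vcan was lower in both (0.548%), and Dcn and Omd were lower in DF and higher in P (0.274%). Between the stage ratios of the tissues, Pearson's r was 0.292 and Spearman's rho 0.138 over the 47 genes, beside 0.173 and 0.198 over all compared genes.

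**Figure D4:**
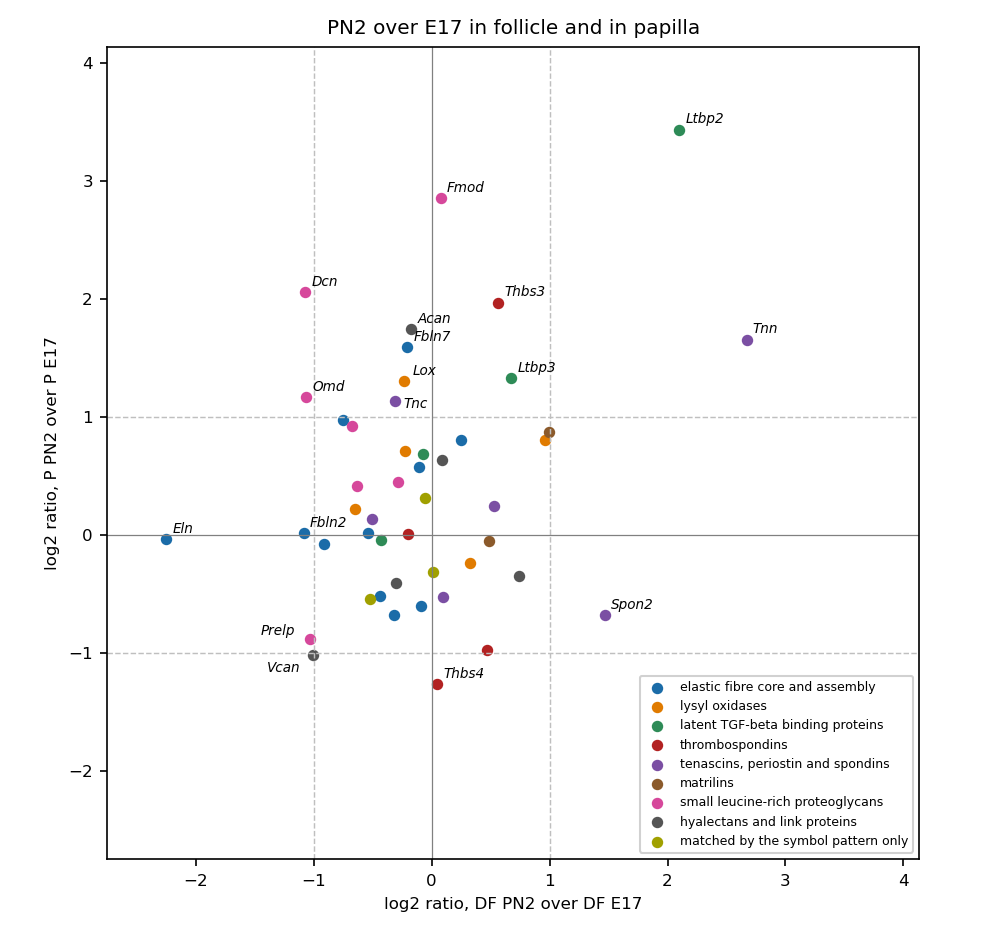
Log2 ratio of PN2 over E17 in P (vertical) against that in DF (horizontal) for the 47 compared genes, coloured by role group, with dashed lines at the 2-fold limit and names where either ratio passes it. Ltbp2 (2.10 in DF and 3.44 in P) and Tnn (2.67 and 1.66) are in the upper right field, Dcn and Omd in the upper left.

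The only error that the files allow is that between probes of a gene, which does not cover differences between animals. Of the 47 genes, 27 have 1 probe and cannot show it, and 20 have several. For these 20 the pooled SD of the log2 ratio between probes was 1.14 at PN2 and 1.00 at E17 for DF over P, wider than over all genes with several probes (0.76 and 0.58), and 0.28 in DF and 0.78 in P between the stages (0.46 and 0.65 over all). Among called genes that have more than 1 probe, all probes passed the limit on the same side in 6 of 10 at PN2, 6 of 9 at E17, 1 of 4 in DF and 0 of 5 in P. The tissue ratios of Vcan, Emilin2 and Thbs4 are thus larger than the spread between their probes at both stages, those of Prelp and Emilin3 are not, and the papilla stage ratios of Dcn, Tnc, Ltbp3, Thbs4 and Vcan held in direction in every probe but not past the limit in every probe.

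**Figure D5:**
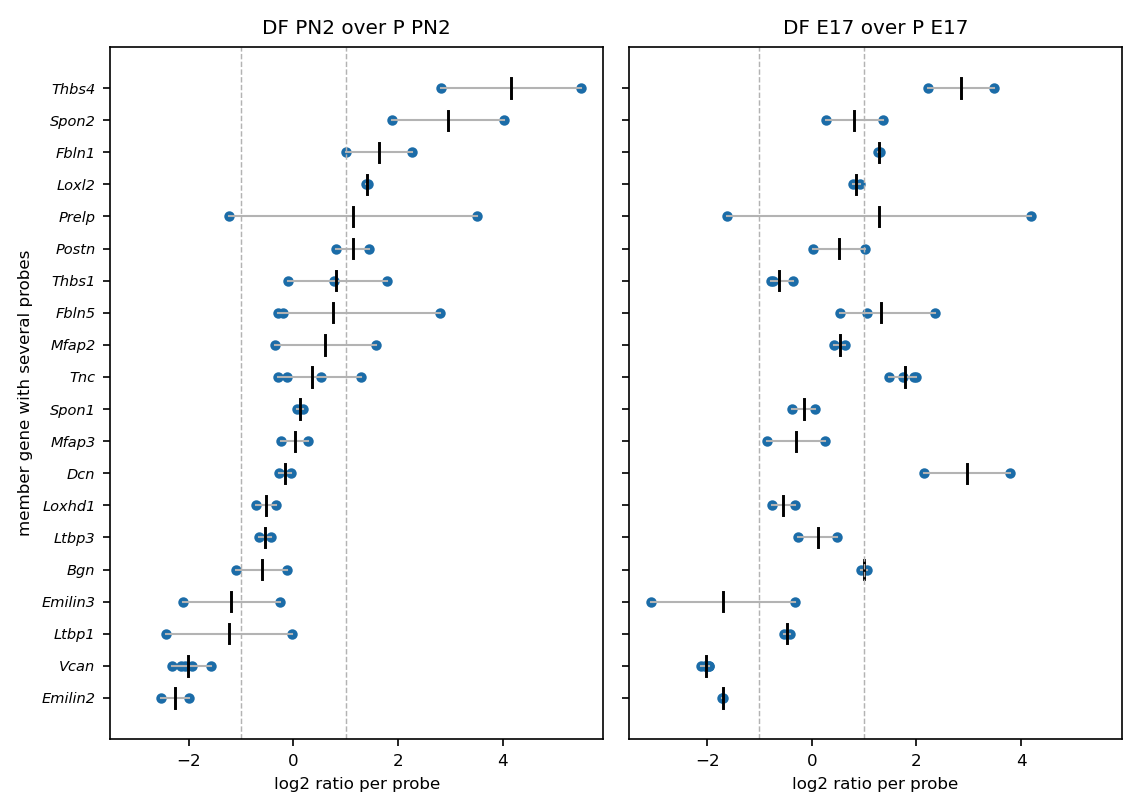
Log2 DF over P ratio for every probe (points) of the 20 compared genes with several probes, at PN2 (left) and E17 (right), with black ticks at the mean and dashed lines at the 2-fold limit. The 5 probes of Vcan lie together near -2.01, whereas the 2 probes of Prelp lie at 3.52 and -1.23 at PN2.

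Genes that work with these proteins were followed in lists that hold no member of the set. For comparison with these lists and those of the next paragraph, the shares of all compared genes follow. They were 12.8% higher and 13.4% lower in DF than in P at PN2, and 10.5% and 10.1% at E17. For PN2 over E17 in P they were 6.55% higher and 5.09% lower. Of 18 measured partners of elastic fibres and latent TGF-beta, 6 were higher and 1 lower in DF than in P at PN2 (median 0.60), 10 were higher and 0 lower at E17 (median 1.21), and 4 were higher and 2 lower in P PN2 than in P E17 (median 0.54, but -0.18 without normalisation). The integrin genes Itgb5 (3.63) and Itgb8 (2.57), whose products bind latent TGF-beta or matrix proteins, led at PN2, and Itgb5 (2.69) and Tgfb3 (2.51) at E17. In the papilla Tgfb1 (1.79, with a P E17 signal of 30.8, under the floor of 37.9) and Tgfb2 (1.27) were higher and the procollagen protease gene Tll1 (-2.47) and Itgb5 (-1.29) lower at PN2 than at E17. Of 14 hyaluronan and hyalectan partners, 4 were higher and 1 lower in DF than in P at PN2 and 5 were higher and 2 lower at E17, with the versican-cleaving protease genes Adamts1 (2.24 at PN2 and 2.56 at E17) and Adamts15 (2.16 and 3.50) among those higher at both stages. The Adamts15 signal was 43.9 in P PN2 and 36.5 in P E17, near or under the floor.

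Of 13 further matricellular genes, 4 were higher and 4 lower in DF than in P at PN2, 6 were higher and 1 lower at E17, and 5 were higher and 0 lower in P PN2 than in P E17 (median 0.24, but -0.73 without normalisation). Ccn4 had a signal of 2608 in DF PN2 and 2983 in DF E17, against 965 in P PN2 and 86.4 in P E17, and Tgfbi stood at -2.16 for DF over P at PN2. Sparc (osteonectin), which binds collagen, was higher in DF at both stages (1.95 and 3.0) and in P PN2 over P E17 (1.18). Of 6 further leucine-rich repeat genes, 1 was higher and 1 lower in DF than in P at PN2 (Podnl1 at 2.67 and Nyx at -1.06), and 2 were higher and 1 lower at E17. These counts are too few to set the list apart from all compared genes (12.8% higher and 13.4% lower at PN2).

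Other cell types moved with the same comparisons. Of all compared genes, 12.8% were higher and 13.4% lower in DF than in P at PN2, and 10.5% and 10.1% at E17. PN2 lay above E17 for 3.83% of them in DF and for 6.55% in P. The summed signal of 4 osteoclast markers was 62556 in DF PN2 and 52000.4 in DF E17, against 1104 in P PN2 and 1865 in P E17, with 4 of 4 higher in DF at each stage, and that of 4 leukocyte markers was 13339 and 12639 in DF, against 1669 and 1004 in P. Smooth muscle and pericyte markers summed to 6210.5 in DF PN2 and 6001 in DF E17, against 3108 in P PN2 and 3371 in P E17, with 3 of 6 higher and 1 lower at PN2 and 2 higher and 0 lower at E17. All 3 measured bone markers (Sp7 1.51, Bglap 2.42 and Ibsp 1.63) were higher in P PN2 than in P E17. Their median there was 1.63, but 0.77 without normalisation. The sum of the bone markers was 22634 in DF PN2 and 16432 in DF E17, against 4110.2 in P PN2 and 1065 in P E17. Most of the follicle sum was Ibsp (20649 in DF PN2), and for DF over P at PN2 Ibsp stood at 5.02, whereas Sp7 (-0.71) and Bglap (-0.87) had the opposite sign. Erythroid markers were higher in DF PN2 than in P PN2 and than in DF E17, 3 of 3 in each case, and 2 of 2 Schwann cell markers were higher in DF at both stages. Dental and oral epithelium markers summed to 2575 in DF PN2 and 2497 in DF E17, against 3116 in P PN2 and 1483 in P E17, with 1 of 4 compared genes higher and 1 lower in DF at PN2 and 3 higher and 0 lower at E17. Endothelial markers were higher in DF for 2 of 4 at each stage, with a median of -0.89 for PN2 over E17 in P. Skeletal muscle markers were higher in DF for 2 of 3 at each stage, and 1 was lower at PN2. Cartilage markers summed to 3630.0 in DF PN2 and 3833 in DF E17, against 2597 in P PN2 and 2743 in P E17, with Sox9 at -2.36 and Col2a1 at 1.60 for DF over P at PN2. Of the tendon and ligament markers, Scx stood at -0.39 and -0.46 and Mkx at 1.07 and 1.4 for DF over P at PN2 and E17. Their part in the ratios of the set was not tested.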

How the data were processed

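Per the labels, the samples are 4 two-colour Agilent arrays of mouse dental follicle and papilla. The authors deposited linear signal intensity for 30146 probes. Per the submitters' processing notes, the scans were quantified by Agilent Feature Extraction 8.5.1.1. For background subtraction, nothing is given in the sources used here. One papilla array's file repeats the DF E17 column, so P E17 was read from the tissue comparison at E17. The deposited log10 ratios differ from the signals' own ratios by 1 constant for each array (within 0.01 as log2 for 99.99% of probes or more). Column medians were 245 in DF PN2, 290.3 in DF E17, 205 in P PN2 and 352 in P E17; the number of arrays limits the precision.

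Probes were named from the platform table (25962 with 1 symbol, 4184 without). Log2 signals, with no pseudocount, were quantile normalised across the 4 columns, and a gene's probes were then averaged. Genes reaching a signal of 100 were compared, and a difference past 2-fold was called. Values were computed with Python 3.11.15, numpy 2.4.6 and pandas 2.3.3, and the steps were tested on simulated data. Signals in every column are given for genes past 2-fold in a tissue or stage comparison or in the change of the tissue ratio, and other genes by their log2 ratios. Members and lists were chosen with earlier results of these data known. Promoter windows are RefSeq sequences of GRCm38.p6, with coordinates only for the windows shown.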

Additional observations from a re-analysis of the deposited data

Results flagged for a closer look

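A total of 3 genes of the set were called in opposite directions under the same contrast. Fmod was lower in DF than in P at PN2 (-1.14) and higher at E17 (1.64). Dcn was lower at PN2 than at E17 in DF (-1.07) and higher in P (2.06). Omd was likewise lower at PN2 than at E17 in DF (-1.07) and higher in P (1.17). Each pair lost 1 of its calls under another scaling: Fmod at PN2 stood at -0.83 without normalisation and -0.92 in the authors' deposited ratios, Dcn in DF at -0.99 with median centring and -0.91 in the authors' deposited ratios, and Omd in P at 0.40 without normalisation. Each difference rests on 1 signal column per tissue and stage and was not tested.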

How the results depend on the processing

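With a limit of 3-fold, the genes called fell to 16 at PN2 and 16 at E17 between the tissues, 3 in DF and 7 in P between the stages, and 9 for the change in the tissue ratio, since fewer pass a stricter limit. Without normalisation, 20 genes were called in P between the stages (4 higher and 16 lower of the 50 that then passed the signal minimum) and the median there was -0.58. Over the 47 genes of the report it called 4 higher and 13 lower, and 12 higher and 1 lower with the shift of all genes removed. Without normalisation the other medians were 0.16 for DF over P at PN2, -0.01 at E17, -0.39 in DF between the stages and 0.07 for the change in the tissue ratio, so that the sign differed from the reported median at PN2, at E17 and for the change. In the authors' deposited ratios the median at PN2 was 0.14. Requiring every probe past the limit, an alternative chosen after seeing the data, left 8 genes in P. All of these have 1 probe and cannot fail this check, while 0 of the 5 called genes with several probes passed it. Genes with 1 probe also made up most of those left at E17 between the tissues (19, beside 6 with several). The other 43 counts stayed within 1.5 times the reported count and the 16 relations moved by less than 0.1. Of the single-gene ratios that were called, followed over the other settings, 722 moved by less than the SD between probes over all genes (0.76 for DF over P at PN2), 29 moved further and 0 changed sign. Ratios inside the limit were not counted here, and some of them did change sign. Dcn for DF over P at PN2, for example, stood at -0.16 and at 0.23 without normalisation. Taking the brightest probe put Prelp at 3.52 for DF over P at PN2 and 4.19 at E17, and Thbs4 at 5.50 at PN2. It put Emilin3 at -0.25 at PN2 and -0.32 at E17, and Ltbp1 at -0.02 at PN2, so that both lost their calls. Calls were also lost by Postn for DF over P at PN2 (0.83) and Thbs1 for the change in the tissue ratio (0.64). Between the stages, they were lost by Dcn in DF (-0.88), Ltbp3 in P (0.95) and Vcan in both (-0.73 and -0.42). No paired analysis was possible because each tissue and stage has 1 signal column, and for the same reason no replicate could be left out. No flag of signal over background was used, and ratios with a signal near 37.9 are the least exact.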

Other observations

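The genes of the set that did not reach the signal minimum had these values. Efemp1 had 54.1 in DF PN2 and 54.2 in DF E17, against 27.0 in P PN2 and 52.8 in P E17. Hapln2 lay between 28.3 and 75.6, Matn3 between 23.3 and 54.6, Tnr between 46.2 and 91.1 and Mfap3l between 47.8 and 85.0 over the 4 columns. The genes that share only a name pattern with the matrix families, Mfap1a, Mfap3 and Loxhd1, passed the 2-fold limit in none of the 4 ratios, with values between -0.69 and 0.31.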
